A study of Mus musculus with 4 samples.

Results

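Chemokine receptors of the CC and CXC families were followed as 9 genes: Ccr2, Ccr4, Ccr7, Ccr8, Ccr9, Cxcr3, Cxcr4, Cxcr5 and Cxcr6. They were taken by gene name from the 31053 genes of the matrices, and all 9 were present. The cells were donor T cells sorted as PI- H-2Kb+ TCRb+ from the spleen of BALB/c recipients with acute graft-versus-host disease, the attack of donor T cells on recipient tissue. Recipients had been irradiated with 900 cGy and given wild-type CD45.1+ CD45.2+ C57BL/6 bone marrow depleted of T cells. Beside the marrow they received splenic regulatory T (Treg) cells, sorted as CD4+ Foxp3-GFP+ CD25hi from CD45.2+ CD45.1- Foxp3-GFP donors. Conventional CD4 and CD8 T cells from wild-type CD45.1+ CD45.2- donors, depleted of Treg cells, followed 2 days later, and spleens were taken 8 days after induction. By design the 4 libraries differed in the Treg donor, labelled CD226+/+ TIGIT+/+ (wild type), CD226-/- TIGIT+/+ (CD226 knockout), CD226+/+ TIGIT-/- (TIGIT knockout) or CD226-/- TIGIT-/- (double knockout). The first 2 of these libraries were in lane 3 and the others in lane 4, so lane follows TIGIT status. CD226 is an activating and TIGIT an inhibitory receptor of T cells that share ligands. The labels give no age and no driver that would limit either loss to Treg cells. Each library pooled 3, of what is not clear from the record, with 1 library per genotype, so no contrast of genotypes has a replicate check, and values of the 4 libraries are given below in the order just listed.

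Chemokine receptors are G protein-coupled receptors that steer T cells along gradients of chemokines, and the set a T cell carries decides which tissues it can enter. Ccr9 responds to Ccl25 and directs T cells to the small intestine; Ccr4 and Ccr8 are linked to skin and are often found on Treg cells. Ccr2, Cxcr3 and Cxcr6 are receptors of inflamed tissue, whereas Ccr7, Cxcr4 and Cxcr5 hold cells in lymph node, marrow and B-cell follicle.

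Donor origin came from the 2 barcoded CD45 antibodies. Cells whose CD45.1 count over their CD45.2 count was below -0.6 on the log2 scale were called Treg-origin cells and numbered 367, 332, 462 and 376. Those above 2.2 were conventional cells, divided by their Cd4 and Cd8 transcripts into 2750, 3098, 3100 and 2813 CD4 cells and 2098, 2600, 2902 and 3415 CD8 cells. Median depth was 3921.5 to 5372 unique molecular identifiers (UMIs, 1 for each captured transcript) per Treg-origin cell, 7039.5 to 9013 per conventional CD4 cell and 8887 to 11901 per conventional CD8 cell. Each pair of libraries shared 23 to 36 cell barcodes. The Treg markers Foxp3, Ikzf2, Il2ra, Ctla4, Tnfrsf18, Lrrc32 and Izumo1r summed to 1768 to 1874 CPM, the UMIs of a gene scaled to the same total in every class sum and library, in Treg-origin cells, against 348 to 410 CPM in conventional CD4 and 227 to 262 CPM in conventional CD8 cells. Foxp3 alone was seen in 16.9% to 26.5% of Treg-origin cells at this depth. Cd226 in Treg-origin cells was 31.2, 4.01, 32.5 and 4.39 CPM. Tigit was 9.11, 5.15, 8.6 and 5.86 CPM, from 9 to 21 UMIs, so it did not separate the libraries labelled as TIGIT knockouts; the deleted part of the gene is not given, and 3′ tags outside it would check nothing. Markers of other cells were uneven in Treg-origin cells: 7 B-cell markers summed to 190 to 709 CPM (71.1 to 84.8 CPM in conventional CD4 cells), with Pax5 at 0 in all 4 libraries. Of the 7, 2 were at 0 with CD226-knockout Treg cells and 4 in each of the other libraries. In conventional CD4 cells 1 or 2 were at 0. The 6 dendritic-cell markers summed to 25.2 to 42.5 CPM (5.38 to 8.37 CPM in conventional CD4 cells), nearly all of it H2-Ab1, at 24.0 to 42.5 CPM; of the other 5, Clec9a, Siglech and Cd209a were at 0 in all 4 libraries and Flt3 and Xcr1 had 1 UMI each, with CD226-knockout Treg cells. The 10 myeloid markers summed to 42.0 to 191 CPM (44.8 to 59.7 CPM in conventional CD4 cells), and the 5 erythroid markers to 996 CPM with CD226-knockout Treg cells and 16.2 to 43.4 CPM in the other libraries. The 5 neutrophil markers reached 1720 and 1509 CPM with wild-type and TIGIT-knockout Treg cells but 8.01 and 4.88 CPM in the other libraries. Their part in the results on Treg-origin cells was not tested beyond the removal of such barcodes given below.

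Ccr9 separated Treg-origin cells from both conventional classes more widely than the other receptors did. Its level in Treg-origin cells was 199.5, 181, 225 and 191 CPM, which gave 199 ± 19.0 (SD, n = 4 libraries). In conventional CD4 cells it was 24.1, 11.3, 26.7 and 14.5 CPM, and in conventional CD8 cells 7.72, 4.44, 11.1 and 6.06 CPM. Every Treg-origin value lay above every conventional value, and within each library the order was Treg-origin, CD4, CD8. The receptor was 3.36 log2 units higher in Treg-origin than in conventional CD4 cells (SE 0.13, adjusted p = 6.4e-12, n = 4 libraries) by the quasi-likelihood F-test of edgeR on summed UMIs with library as a block, adjusted by Benjamini-Hochberg over 11809 genes. Against conventional CD8 cells the log2 fold was 4.71 (SE 0.14, adjusted p = 1.4e-13), and CD8 cells were 1.35 log2 units below CD4 cells (log2 fold -1.35, adjusted p = 8.8e-07). All alternatives kept these 3 calls, with log2 folds of 2.85 to 3.51, 3.87 to 4.93 and -1.51 to -1.03. SE values were obtained by dividing each fold by the root of its F value.

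**Figure D1:**
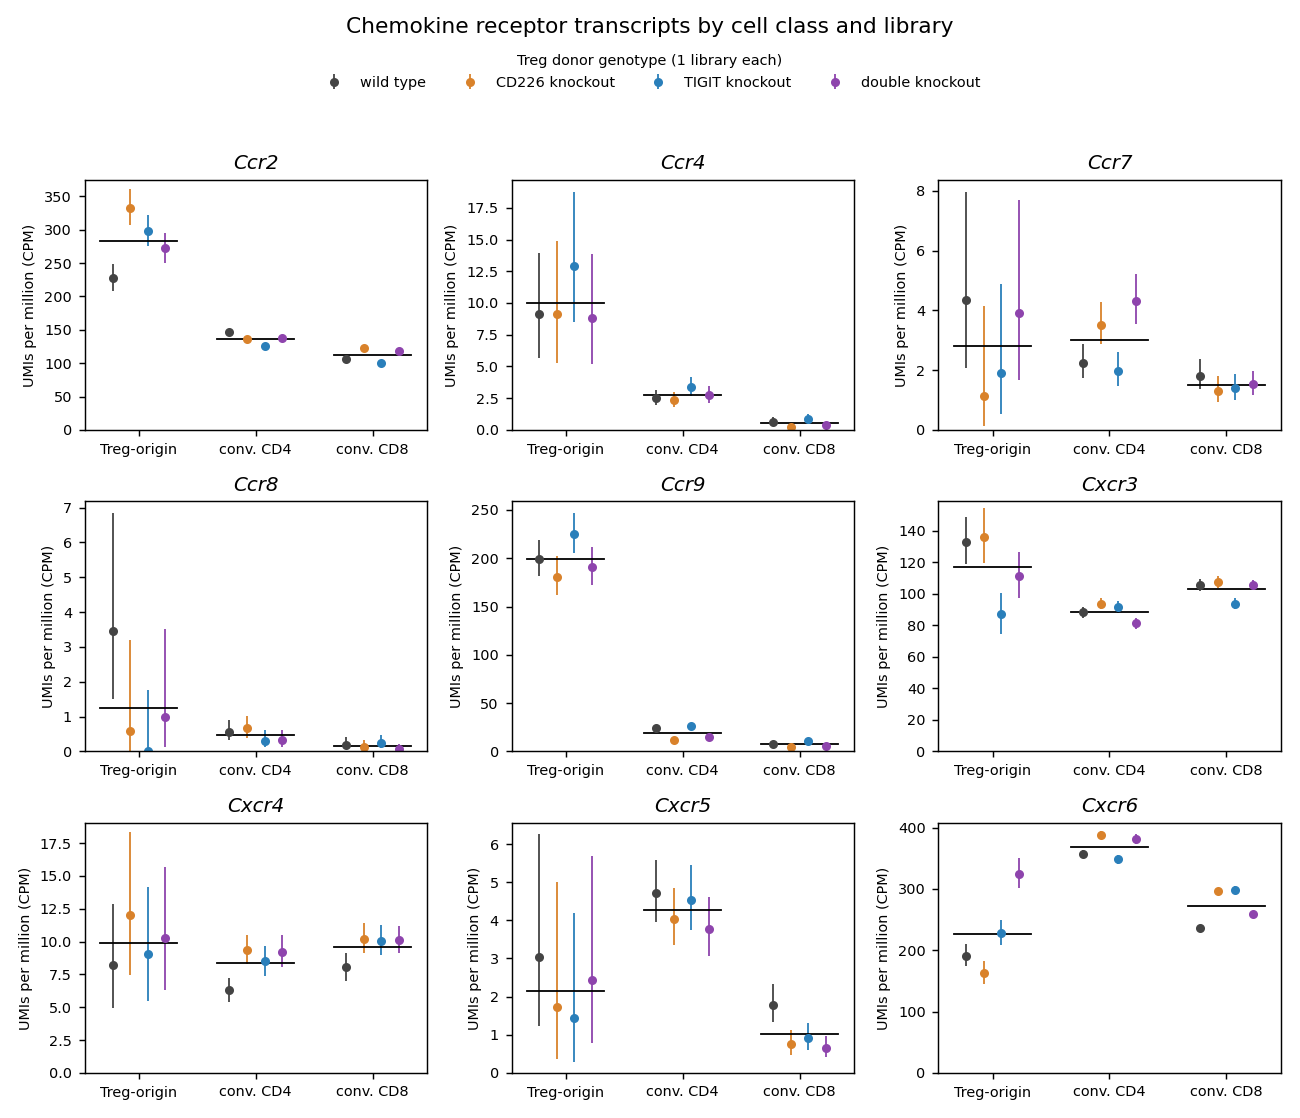
CPM of each receptor (vertical axes, each starting at 0) in Treg-origin, conventional CD4 and conventional CD8 cells; points are the 4 libraries coloured by Treg donor genotype, bars exact 95% Poisson intervals and black lines the mean of the libraries. Ccr9 in Treg-origin cells lay between 181 and 225 CPM and in no conventional class above 26.7 CPM, while Cxcr6 was highest in conventional CD4 cells, at 348 to 388 CPM.

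Per cell, a Ccr9 UMI was found in 24.1% to 32.2% of Treg-origin cells, 3.58% to 7.55% of conventional CD4 and 1.81% to 5.07% of conventional CD8 cells. After each cell was thinned to 2000 UMIs, which removes the difference in depth, the shares were 18.1% to 22.7%, 1.59% to 3.77% and 0.619% to 1.63%. For comparison, Foxp3, which conventional cells depleted of Treg cells should largely lack, had a UMI in 0.163% to 0.512% of thinned conventional CD4 cells. The Foxp3 share was 0.287% to 1.35% in thinned conventional CD8 cells, near that of Ccr9 there. In thinned Treg-origin cells it was 9.63% to 13.6%. Ccr9-positive cells of Treg origin carried 2.0 to 2.18 UMIs of it on average after thinning, against 1.60 to 1.84 in conventional CD4 cells. Among conventional CD4 cells, the median antibody ratio was 2.92 to 3.11 with a Ccr9 UMI and 3.15 to 3.51 without one. It was lower with a Ccr9 UMI in each library. The cut-off of 2.2 fixes both as high, so this ratio is no separate readout of origin. Xist without a Y-linked transcript was found in 0% to 0.855% of Ccr9-positive and 0.0372% to 0.196% of Ccr9-negative conventional CD4 cells. In conventional CD8 cells these shares were 0.680% to 4.26%, of only 47 to 147 Ccr9-positive cells per library, and 0.0783% to 0.249%. Of the Ccr9-positive Treg-origin cells, 89.0% to 95.8% had it, and of the Ccr9-negative ones 84.0% to 87.3%. A Y-linked transcript without Xist was found in 0% to 1.25% of either. In conventional CD4 cells it was found in 59.0% to 70.4% with and 57.9% to 66.5% without a Ccr9 UMI. In conventional CD8 cells it was found in 62.7% to 83.0% and 62.65% to 72.7%. By these transcripts most Treg-origin cells were female and most conventional cells male. The part of Treg-origin cells in the Ccr9 of conventional cells was not tested.

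Ccr9 and Cxcr6 are neighbours on mouse chromosome 9 but ran in opposite directions between Treg-origin and conventional CD4 cells, so the stretches before their start sites are shown together. On GRCm38 (mm10, with GENCODE M21 genes) Ccr9 spans chr9:123678439-123784330 and Cxcr6 chr9:123806475-123811760, both on the plus strand, 22144 bases apart. Of the 9 receptors, 6 lie on chromosome 9. The sequences are from RefSeq (GRCm38.p6), plus strand, 5′ to 3′: 208 bases of chr9:123766961-123767168 before the start site used for Ccr9, without the 42 bases of the window that lie in annotated Ccr9 exons, and 248 bases of chr9:123806227-123806474 before Cxcr6, without 2 such bases. The start site used for Ccr9 lies inside the GENCODE span given above, so that stretch is within the span and not before it. Capitals mark a match to the RUNX core on the minus strand, the one match found among 4 motifs searched on both strands in the 250 bases before each start.
Ccr9: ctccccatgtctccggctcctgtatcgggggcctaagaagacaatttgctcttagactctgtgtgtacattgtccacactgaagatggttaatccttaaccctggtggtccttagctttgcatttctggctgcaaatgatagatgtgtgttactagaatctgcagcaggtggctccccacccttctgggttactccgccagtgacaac
Cxcr6: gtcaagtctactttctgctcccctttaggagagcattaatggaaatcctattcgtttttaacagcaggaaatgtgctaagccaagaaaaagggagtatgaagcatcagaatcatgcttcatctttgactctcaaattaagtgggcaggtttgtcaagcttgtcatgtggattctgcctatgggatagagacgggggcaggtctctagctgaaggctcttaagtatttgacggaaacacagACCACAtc
The first motif was the RUNX core TGTGGT. The second was a T-box core, written AGGTGT. For factors of the GATA family the letters AGATAA were searched for. The last was an E-box, CAGCTG, which reads the same on both strands. In the Cxcr6 stretch the RUNX match begins 10 bases before the start. These letters stood in 14.05%, 11.83%, 9.988% and 13% of the 32851 promoter windows of the same length, so a match is common. The 250 bases before Ccr9, Ccr4 and Cxcr4 held none of the 4, Cxcr3 held the RUNX core, Ccr2 and Ccr8 held the GATA core, and 7 of the 9 receptors were in the promoter table.

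Ccr2, the receptor that guides cells toward Ccl2 in inflamed tissue, was also highest in Treg-origin cells. Its level was 228, 333, 298 and 272 CPM there, 147, 137, 126 and 138 CPM in conventional CD4 cells and 105, 123, 100.1 and 118 CPM in conventional CD8 cells. The lowest Treg-origin library still exceeded the highest conventional one. The difference was 0.99 log2 units against CD4 (SE 0.08, edgeR adjusted p = 2.5e-08) and 1.26 against CD8 (SE 0.08, adjusted p = 7.8e-10). CD8 cells were lower than CD4 cells, with a log2 fold of -0.27 (adjusted p = 0.0026). The highest CD8 library, at 123 CPM, stood just under the lowest CD4 library, at 126 CPM.

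Cxcr6, the receptor for Cxcl16, was highest in conventional CD4 cells. It was 357, 388, 348 and 382 CPM in conventional CD4 cells, 236, 296, 298 and 259 CPM in conventional CD8 cells and 191, 163, 228 and 325 CPM in Treg-origin cells. Every CD4 library stood above every library of the other classes, while the Treg-origin and CD8 values overlapped. Treg-origin cells were lower than CD4 cells, with a log2 fold of -0.75 (SE 0.12, edgeR adjusted p = 7.0e-05), and CD8 cells lower than CD4 cells by a log2 fold of -0.41 (adjusted p = 0.0017; 0.060 with DESeq2). The Treg-origin value was below that of CD8 cells with a log2 fold of -0.33 (adjusted p = 0.026), a call that 7 of 15 alternatives kept. It was lost without the wild-type (0.083), CD226-knockout (0.24) or TIGIT-knockout library (0.10), with DESeq2 (0.11), within lane 4 (log2 fold -0.083, adjusted p = 0.66), under the stricter cell filter (0.079) and stricter antibody cut-offs (log2 fold -0.079, adjusted p = 0.68), and in Treg-origin cells with more Cd4 than Cd8 (0.10). A Cxcr6 UMI was found in 45.9% to 48.7% of thinned conventional CD4 cells, 35.3% to 41.8% of CD8 cells and 21% to 35.0% of Treg-origin cells.

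Cxcr3, the receptor for the interferon-induced chemokines Cxcl9 and Cxcl10, differed little between classes. It was 133, 136, 86.9 and 111 CPM in Treg-origin cells, 88.2, 93.8, 91.7 and 81.2 CPM in conventional CD4 cells and 105, 107, 93.7 and 106 CPM in conventional CD8 cells. The TIGIT-knockout library was the one in which Treg-origin cells were not above CD4 cells. The log2 fold was 0.34 for Treg-origin over CD4 cells (SE 0.09, edgeR adjusted p = 0.0044) and 0.24 for CD8 over CD4 cells (SE 0.06, adjusted p = 0.0066). The first call was lost without the wild-type library (0.069) and within lane 4 (log2 fold 0.14, adjusted p = 0.44) and in Treg-origin cells with more Cd4 than Cd8 (0.13), the second without the double-knockout library (0.073) and within lane 4 (0.15). Treg-origin and CD8 cells were not separated (log2 fold 0.10, SE 0.09, adjusted p = 0.36), and the same comparison was called without the TIGIT-knockout library (0.18, adjusted p = 0.024), within lane 3 (0.30, 0.0028), under stricter antibody cut-offs (0.51, 2.1e-05) and in thinned cells (0.32, 0.0092).

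Ccr4 and Ccr8, which bind Ccl17 and Ccl22 or Ccl1, were rare transcripts. Ccr4 was 9.11, 9.16, 12.9 and 8.78 CPM in Treg-origin cells, 2.53, 2.35, 3.37 and 2.75 CPM in conventional CD4 cells and 0.649, 0.263, 0.878 and 0.376 CPM in conventional CD8 cells. The 3 classes did not overlap, and within each library the order was that of Ccr9. The log2 fold was 1.79 for Treg-origin over CD4 cells (SE 0.22, edgeR adjusted p = 5.4e-06), 4.13 over CD8 cells (SE 0.27, adjusted p = 1.4e-09) and -2.34 for CD8 over CD4 cells (SE 0.20, adjusted p = 1.9e-07). Ccr8 rested on 11 UMIs in all Treg-origin cells, of which 8 came from the wild-type library and 0 from the TIGIT-knockout library, where 3 UMIs, the limit used for a count of 0, are worth 1.43 CPM and the exact 95% interval reaches 1.76 CPM. Its levels were 3.47, 0.572, 0 and 0.976 CPM in Treg-origin cells and 0.547, 0.657, 0.310 and 0.314 CPM in conventional CD4 cells, so the groups overlapped, and in the CD226-knockout and TIGIT-knockout libraries Treg-origin cells were the lower. That difference was not called (log2 fold 1.47, SE 0.65, adjusted p = 0.080), but was without the TIGIT-knockout library (1.75, adjusted p = 0.027), under stricter antibody cut-offs (2.49, 0.0048) and in Treg-origin cells with more Cd4 than Cd8 (2.0, 0.045), and without the wild-type library the log2 fold was 0.23 (adjusted p = 0.89). Against CD8 cells, at 0.0751 to 0.228 CPM, Ccr8 was called higher in Treg-origin cells (log2 fold 3.0, adjusted p = 0.0030), and not without the wild-type library (1.74, adjusted p = 0.25). CD8 cells were lower in Ccr8 than CD4 cells (log2 fold -1.53, adjusted p = 0.014), a call lost without the CD226-knockout library (0.091).

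Of the receptors of lymphoid tissue, Cxcr5 and Ccr7 were lower in CD8 than in CD4 cells. Cxcr5, which leads T cells to follicles, was 4.72, 4.05, 4.54 and 3.77 CPM in conventional CD4 cells, 1.78, 0.757, 0.911 and 0.651 CPM in CD8 cells and 3.04, 1.72, 1.43 and 2.44 CPM in Treg-origin cells. The CD4 libraries lay above all others, and the log2 fold of CD8 over CD4 cells was -2.08 (SE 0.18, edgeR adjusted p = 2.1e-07). Only 18 UMIs gave the Treg-origin values. They were called lower than in CD4 cells (log2 fold -1.04, adjusted p = 0.020) and higher than in CD8 cells (1.03, adjusted p = 0.045). Of 15 alternatives 7 kept each call. The first was lost without the CD226-knockout (0.073) or TIGIT-knockout library (0.10), without the block (0.052), within lane 3 (0.18) and lane 4 (0.082), under the stricter cell filter (log2 fold -0.25, adjusted p = 0.73) and stricter antibody cut-offs (-0.17, 0.82), and in Treg-origin cells with more Cd4 than Cd8 (-0.53, 0.43). The second was lost without the CD226-knockout (0.095), TIGIT-knockout (0.056) or double-knockout library (0.19), without the block (0.079), within lane 3 (0.25) and lane 4 (0.10), under the stricter cell filter (0.070) and without barcodes of B or myeloid transcripts (0.051).

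Ccr7, the lymph-node receptor of naive and central memory T cells, was 2.26, 3.53, 1.98 and 4.32 CPM in conventional CD4 cells and 1.81, 1.32, 1.40 and 1.53 CPM in conventional CD8 cells. All CD4 values were above all CD8 values, with a log2 fold of -0.95 for CD8 over CD4 (SE 0.21, edgeR adjusted p = 0.0017), a call lost within lane 3 (0.057). In Treg-origin cells it was 4.34, 1.14, 1.91 and 3.90 CPM from 24 UMIs, which overlapped CD4 (log2 fold -0.08, SE 0.38, adjusted p = 0.89) and, in part, CD8 cells (0.87, SE 0.42, adjusted p = 0.090; 0.027 with no low-count filter and 0.049 with the 2 classes alone). Cxcr4, the receptor for Cxcl12 of marrow and stroma, was 8.24, 12, 9.07 and 10.2 CPM in Treg-origin cells, 6.29, 9.34, 8.5 and 9.24 CPM in CD4 cells and 8.03, 10.2, 10.1 and 10.1 CPM in CD8 cells. CD8 cells were higher than CD4 cells in each library, with a log2 fold of 0.24 (SE 0.07, edgeR adjusted p = 0.0092), a call that 8 of 14 alternatives kept. It was lost without the block (0.14), without the wild-type library (0.051), within lane 3 (0.13) and lane 4 (0.22), under stricter antibody cut-offs (log2 fold 0.14, adjusted p = 0.17) and in thinned cells (0.12, 0.60). Treg-origin cells were called different in Cxcr4 from neither class (0.20 against CD4, adjusted p = 0.38; -0.04 against CD8, adjusted p = 0.86), but both were called higher under stricter antibody cut-offs (0.70, adjusted p = 0.0094, and 0.55, adjusted p = 0.033).

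Across the 9 receptors, 4 were higher and 2 lower in Treg-origin than in conventional CD4 cells, where 20.1% of the genes tested were called higher and 23.7% lower. Between CD8 and CD4 cells 2 were higher and 7 lower, against 21.1% and 18% of genes. Between Treg-origin and CD8 cells 5 were higher and 1 lower, against 25% and 28.8%. The median log2 fold of the 9 was 0.34, -0.95 and 1.03 in these comparisons, beside -0.02, 0.01 and -0.03 over all genes tested. The calls compare classes over 4 libraries of different Treg genotype. Library is a block, so the spread holds how class differences vary between libraries, genotype effects on them included. Donor sex follows origin by the Xist and Y-linked transcripts given above. Origin and donor sex therefore cannot be told apart in the comparisons of Treg-origin with conventional cells, and Cxcr3 lies on the X chromosome. Fewer transcripts per cell and fewer positive cells are not told apart by summed UMIs.

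**Figure D2:**
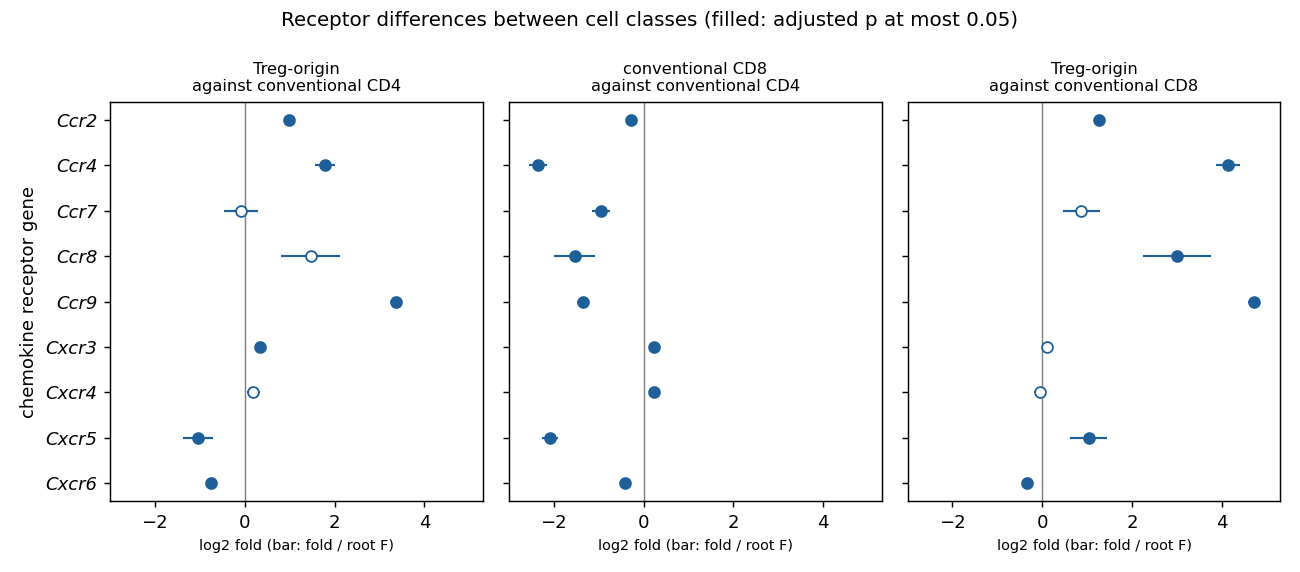
Log2 fold of each receptor (horizontal axes) for Treg-origin over conventional CD4, conventional CD8 over conventional CD4 and Treg-origin over conventional CD8 cells; bars are 1 SE, and filled points have an adjusted p of at most 0.05. Ccr9 stood at 3.36 and 4.71 above the conventional classes, and Cxcr5 and Cxcr6 below 0 in both comparisons with conventional CD4 cells.

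Removing barcodes with at least 3 UMIs summed over 11 B-cell, myeloid and neutrophil genes, an alternative chosen after the data were seen, left Ccr9 3.31 log2 units higher in Treg-origin than in CD4 cells and ended 1 receptor call, that of Cxcr5 against CD8 cells (adjusted p = 0.051). Treg-origin cells with and without a Foxp3 UMI were compared in the same way. Of the 9 receptors 5 could be tested and 0 were called, against 0.318% of 6928 genes called higher and 0.217% lower in Foxp3-positive cells. Ccr9 was 200 ± 68.7 CPM in Foxp3-positive and 202 ± 25.6 CPM in Foxp3-negative cells (SD, n = 4 libraries). Cxcr6 was 186 ± 51.2 and 241 ± 87.2 CPM, the 1 receptor with an unadjusted p under 0.05 (log2 fold -0.40, unadjusted p = 0.0021, edgeR adjusted p = 0.24). DESeq2 also called 0 of the 5. Cxcr6 was called without the CD226-knockout library (log2 fold -0.65, adjusted p = 0.00044) and with no low-count filter (-0.43, 0.0062). A Foxp3-negative cell at this depth need not lack the transcript.

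The other genes of chemokine sensing came from lists named in the methods. Of 21 further receptors of chemokines, lipids and sphingosine phosphate, 13 were tested, and 6 were higher and 2 lower in Treg-origin than in conventional CD4 cells. Among the higher ones, the atypical receptor Ccrl2 was 2.51 log2 units higher (edgeR adjusted p = 2.3e-08), Ccr3 2.45 (5.5e-06), Ccr1 2.04 (9.2e-08), the leukotriene receptor Ltb4r1 1.84 (4.8e-08) and the oxysterol receptor Gpr183 0.82 (2.9e-07). Ccr1 was 21.3, 18.3, 22.4 and 8.78 CPM in Treg-origin and 2.99 to 5.59 CPM in CD4 cells, and Ccr3 was 5.20, 14.3, 17.2 and 4.39 CPM against 1.44 to 2.05 CPM, so neither overlapped. Ccr1 and Ccr3 are also receptors of myeloid cells and granulocytes, and the neutrophil and dendritic-cell markers given above were higher in Treg-origin cells in 2 and in 4 of the libraries; without barcodes of B or myeloid transcripts the log2 folds of Ccrl2, Ccr3, Ccr1 and Ltb4r1 were 2.51, 2.60, 2.0 and 1.80. The egress receptor S1pr1 (-0.40, adjusted p = 2.2e-05) and S1pr4 (-0.20, 0.0095) were lower. Between conventional CD8 and CD4 cells 4 were higher, among them Cmklr1 (2.57, adjusted p = 3.2e-07), S1pr5 (2.57, 0.00022) and the effector-cell receptor Cx3cr1 (1.34, 3.3e-07). The 5 lower ones were Gpr15, another receptor of gut homing (-1.98, 1.8e-07), Ccr1 (-1.11), Gpr183 (-0.96), Ccrl2 (-0.54) and S1pr1 (-0.19).

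Of the 16 ligand genes, 5 were expressed highly enough to test. Ccl1, the ligand of Ccr8, was lower in Treg-origin than in CD4 cells (log2 fold -1.68, edgeR adjusted p = 4.8e-05) and lower in CD8 than in CD4 cells (-2.63, 1.3e-08), and it was lower in Foxp3-positive than in Foxp3-negative Treg-origin cells (-1.62, 0.00087). Cxcl10, a ligand of Cxcr3, and Ccl17, a ligand of Ccr4, were higher in Treg-origin cells than in CD4 cells (2.37, adjusted p = 0.00024, and 1.53, 0.013). Cxcl10 was 7.37, 5.15, 35.3 and 11.2 CPM there against 1.63 to 3.67 CPM, and Ccl17 rested on 15 UMIs, at 2.60, 1.72, 2.39 and 0.488 CPM against 0.484 to 0.737 CPM. Dendritic and other myeloid cells make both as well; without barcodes of B or myeloid transcripts the log2 folds were 2.49 and 1.34 (adjusted p = 0.037 for Ccl17), and the part of the higher H2-Ab1 level was not tested. Ccl25, the ligand of Ccr9, was not separated there (0.10, adjusted p = 0.67). Of 12 partner homing genes 5 were higher and 5 lower in Treg-origin than in CD4 cells. Itgae, the αE integrin of cells in epithelium, was 4.02 log2 units higher (adjusted p = 1.0e-10) and its partner chain Itgb7 0.58 higher (6.5e-09). Itga4, which pairs with Itgb7 in the gut-homing integrin, was 0.81 log2 units lower (log2 fold -0.81, 1.7e-08) and Itgb1 had a log2 fold of -1.36 (4.0e-10), with Gcnt1 (-1.34), Cd44 (-0.56) and Itgal (-0.15) the other lower ones and Cd69 (1.0) and Selplg (0.31) also higher. Between CD8 and CD4 cells 3 of the 12 were higher (Itga4 0.23, Selplg 0.21, Itgb2 0.13) and 5 lower, from Itgb1 (-0.86) to Itgb7 (-0.10).

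Of 36 signalling genes tested, 12 were higher and 9 lower in Treg-origin than in CD4 cells. Rgs1, which shortens chemokine receptor signals, was 1.65 log2 units higher (edgeR adjusted p = 1.3e-09) and Rgs10 1.10 higher (6.4e-09), with Rgs2 (1.49), Arrb1 (1.46), Plcb3 (1.36) and Gnaq (1.19) also among the higher ones, while Rgs16 (-1.69, 0.00017) and the Rap1 activator Rasgrp2 (-0.98, 9.4e-09) were lower, followed by Pik3r5 (-0.78), Grk6 (-0.33), Pik3cg (-0.28) and Gng2 (-0.26). Between CD8 and CD4 cells 7 of the 36 were higher and 8 lower, with Rgs10 at -1.39 (adjusted p = 1.8e-10), Rgs16 at -1.03, Gnaq at -0.92 and Plcb3 at -0.66 among the lower and Tpst1 (0.94), Plcb2 (0.79) and Pik3r5 (0.59) among the higher. Of 18 regulators, 9 were higher and 3 lower in Treg-origin than in CD4 cells. Ikzf2 (3.62, adjusted p = 2.6e-13), Gata3 (1.01, 2.2e-11), the retinoic acid receptor Rara (0.97, 7.8e-07), Prdm1 (0.94, 1.1e-07) and Maf (0.82, 6.8e-09) were among the higher ones, and Tbx21 (-1.16, 1.9e-08), Klf2 (-0.56, 4.3e-07) and Runx3 (-0.28, 0.00045) made up the lower ones. Between CD8 and CD4 cells 5 regulators were higher, led by Eomes (1.87, adjusted p = 5.6e-10), and 9 lower, led by Maf (-1.52, 1.9e-12), Bcl6 (-1.08) and Bach2 (-1.01). In Treg-origin against CD8 cells these 5 lists gave 6, 3, 5, 12 and 10 higher and 6, 0, 6, 10 and 4 lower genes, in the order further receptors, ligands, homing partners, signalling and regulators. In that order the lists had median log2 folds of -0.08, 0.20, 0.06, -0.02 and 0.32 in Treg-origin against CD4 cells, beside -0.02 over all genes tested. The share of all genes called is that given above for each comparison.

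Receptors were then paired within cells thinned to 2000 UMIs, as the number of cells with both over the number expected from the 2 shares. In Treg-origin cells Ccr9 and Cxcr3 were seen together in 2 to 12 cells per library, 0.151 to 0.706 times the expected number and below 1 in all 4 libraries. Ccr2 and Cxcr3 were found together more often than expected, at 1.35 to 1.46 times in 34 to 46 cells, and 1.11 to 1.2 times without thinning. Among conventional CD4 cells the follicular receptor Cxcr5 was rarely found with Cxcr6 (0.217 to 0.277 times, 3 to 6 cells), and Ccr7 with Cxcr6 in 0.136 to 0.290 times the expected number (1 to 3 cells). Without thinning these pairs gave 0.296 to 0.375 times (16 to 28 cells) and 0.376 to 0.572 times (19 to 27 cells). Ccr2 and Cxcr5 gave 0.166 to 0.680 times, from 1 to 4 cells, whereas Ccr2 and Cxcr6 gave 1.16 to 1.23 times, from 329 to 406 cells. In conventional CD8 cells Ccr9 and Cxcr6 were found together at 1.37 to 1.70 times the expected number, in 10 to 29 cells, and 1.10 to 1.12 times without thinning. In 8 of 25 pairs the median lay below 1 thinned and above 1 unthinned, among them Ccr9 with Cxcr6 in Treg-origin cells (0.936 and 1.16), and Ccr2 with Cxcr3 (0.928 and 1.04) and Cxcr3 with Cxcr4 (0.895 and 1.17) in conventional CD4 cells. In 12 of 25 pairs the median moved by more than the SD of the libraries without thinning. The remaining pairs had medians of 0.729 to 1.11. Before thinning, the median depth of conventional CD4 cells was 3537.5 to 4839 UMIs with and 7119 to 9117 without Cxcr5, and 3583 to 5269.5 UMIs with Ccr7. Treg-origin cells had a median of 3590 to 4662 UMIs with and 4800.5 to 6142 without Ccr2. For Cxcr3 the medians there were 3585 to 4900 UMIs with and 4484 to 5779.5 without it. In each library the Treg-origin cells with Ccr2 or Cxcr3 were the shallower ones. The part of depth in these pairs was not tested further. Between 24.6% and 28.9% of thinned Treg-origin cells had a UMI of none of the 9 receptors, against 31.8% to 33.9% of CD4 and 36.5% to 41.4% of CD8 cells. These are descriptions of cells within libraries and were not tested.

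**Figure D3:**
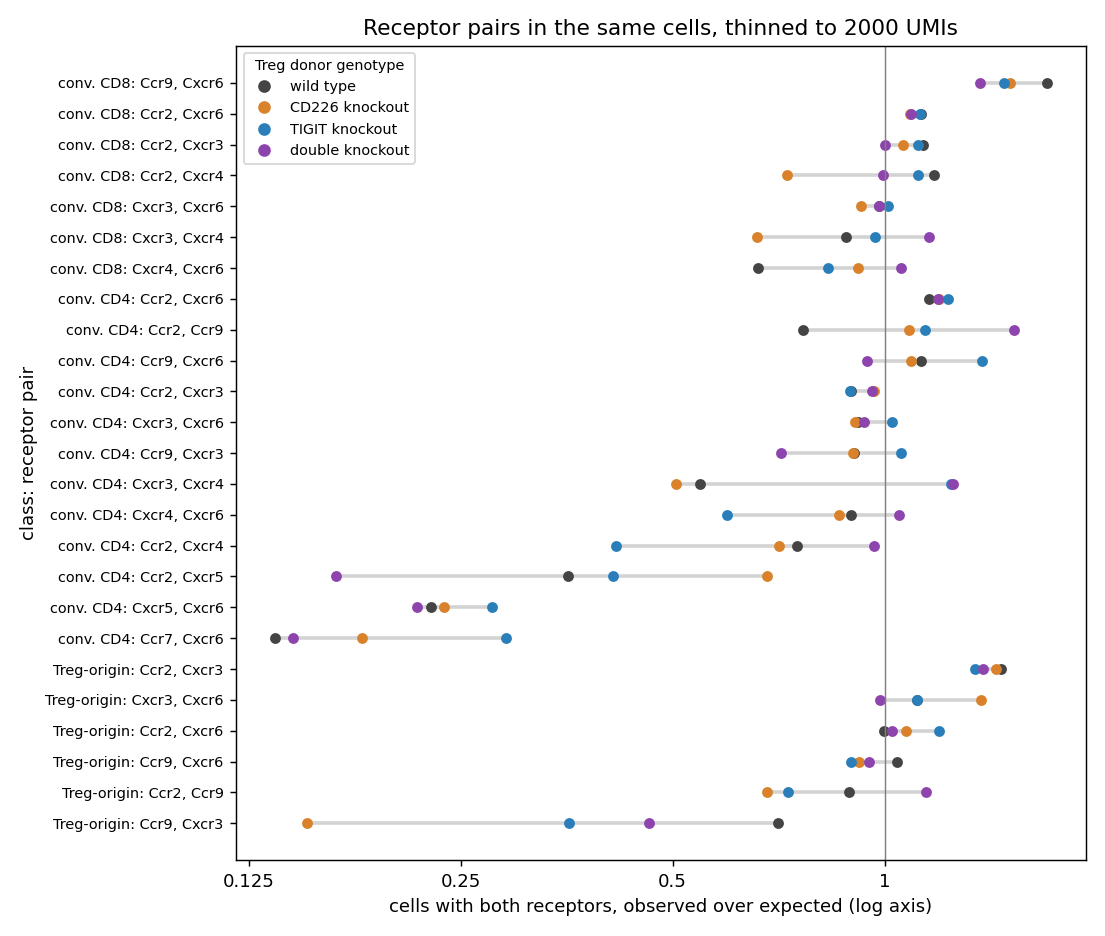
Observed over expected number of thinned cells with both receptors of a pair (horizontal log axis) for each class and pair with at least 5 expected cells in every library; points are libraries and grey lines their range. Treg-origin Ccr9 with Cxcr3 lay at 0.151 to 0.706 and conventional CD4 Cxcr5 with Cxcr6 at 0.217 to 0.277, while Ccr2 with Cxcr3 in Treg-origin cells lay at 1.35 to 1.46.

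Genes most like each receptor were found by comparing thinned cells with and without its UMI and ranking genes by the weakest of the 4 libraries, for receptors with at least 30 positive cells in each library. Among 2797 genes in Treg-origin cells, those highest in Ccr9-positive cells were Tesc, Lztfl1, Epas1, Plac8 and Blvrb. Lztfl1 was 363, 386, 297 and 242 CPM in Ccr9-positive and 82.4, 89.1, 118 and 62.5 CPM in Ccr9-negative cells. The groups did not overlap, which the ranking on these same libraries favours. Lztfl1 is annotated on the minus strand inside the span of Ccr9, with no shared exon base and 66633 bases from the 3′ end of Ccr9. Whether counting used strand is not given in the sources used here, so reads of overlapping genes may not have been kept apart. Plac8 was 775, 1167, 657 and 924 CPM against 341, 198, 259 and 158 CPM. The 5 lowest genes were led by the chemokine gene Ccl5, at 18.8, 35.1, 87.2 and 7.58 CPM in Ccr9-positive and 1603, 3244, 2597 and 3252 CPM in Ccr9-negative cells. The chemokine genes Ccl3 and Ccl4 and the granzyme gene Gzmk were also lower in Ccr9-positive cells in each library. Igkc, an immunoglobulin gene, completed the 5 at 0 CPM in Ccr9-positive and 42.3 to 1031 CPM in Ccr9-negative cells; the part of other cells in these differences was not tested.

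In conventional CD4 cells, where Ccr9 marks far fewer cells, Plac8 led as well, at 927, 1643, 1056 and 1117 CPM in Ccr9-positive against 167, 175, 206 and 147 CPM in Ccr9-negative cells. Gbp2, Lgals7, Gm2a and the granzyme gene Gzma came next, and Ccl4, Ifitm1, Klrd1, Lgals3 and Ccl3 were lowest. Gzma was 2045, 2316, 2517 and 1775 CPM with and 976, 835, 707 and 548 CPM without a Ccr9 UMI. Plac8, Ccl3 and Ccl4 stood in the first 5 of both classes.

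**Figure D4:**
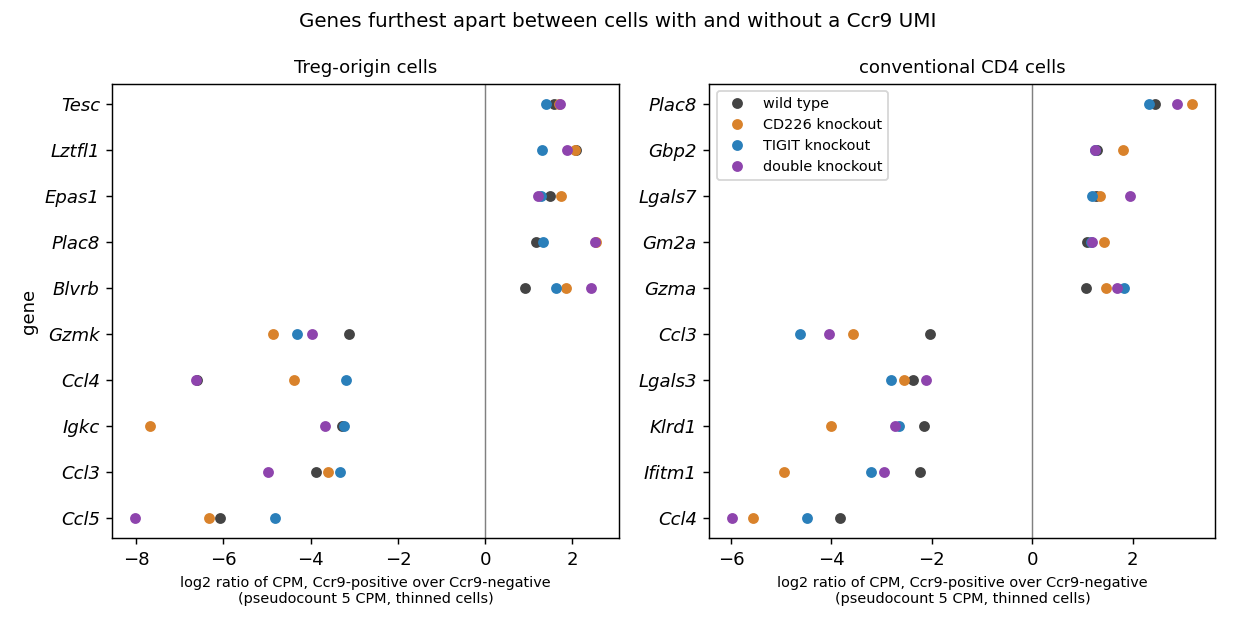
Log2 ratio of CPM between thinned cells with and without a Ccr9 UMI (horizontal axes, pseudocount 5 CPM) for the 5 genes furthest in each direction in Treg-origin and in conventional CD4 cells; points are libraries. All points of a gene lie on 1 side of 0, as the ranking requires, with Plac8 from 1.17 to 2.53 in Treg-origin and from 2.33 to 3.19 in conventional CD4 cells.

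The other receptors had less marked partners. Ccr2-positive Treg-origin cells were highest in Cxcr3, with Eva1b, Ifi206 and Gimap3 also among the first 5 genes and Cxcr3 at 252, 254, 132 and 235 CPM against 96.2, 107, 70.0 and 108 CPM, and lowest in the replication genes Mcm3 and Orc6 with Mpp6, Imp4 and Ccnb1. In conventional CD4 cells Ccr2 went with Ccl5 (437, 616, 182 and 534 CPM against 187, 334, 80.4 and 236 CPM), Ifitm1, AA467197, Ifitm3 and Klrd1, and in conventional CD8 cells with Ccl5, Ly6c2, Btg1, Klrd1 and Epsti1. Cxcr3-positive Treg-origin cells were highest in the interferon-γ receptor gene Ifngr1 (727, 801, 591 and 901 CPM against 358, 428, 270 and 449 CPM), with Sdcbp2, Mxd1 and Gimap6 also among the first 5 genes, and lowest in Ccl1. With Cxcr3 in conventional CD4 cells went Ifi27l2a, Slamf6, Slfn1, Ypel3 and Gm8369, and in CD8 cells Ly6c2, Epsti1, Tprgl, Cd27 and Ccl5.

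Cxcr6-positive Treg-origin cells were highest in Lgals3, the IL-18 receptor genes Il18r1 and Il18rap, the interferon-γ gene Ifng and the granule gene Nkg7. Lgals3 was 815, 788, 495 and 1270 CPM against 299, 275, 232 and 359 CPM. Lowest were Cd81, Dnajc21, Snrnp200, S100a9 and Irgm1. S100a9, a gene of neutrophils, was 0, 0, 4.76 and 0 CPM in Cxcr6-positive and 301, 4.02, 375 and 2.17 CPM in Cxcr6-negative cells; the part of other cells in this split was not tested. Among conventional CD4 cells Cxcr6 went with Klrd1, Lilr4b, AA467197, Ifitm3 and Tmem37, and against Slamf6, Ifi27l2a, Id3, Rgs10 and Tnfsf8, so Slamf6 and Ifi27l2a were high beside Cxcr3 and low beside Cxcr6. Cxcr4 could be ranked in conventional cells only, and there went with the histone genes Hist1h4d and Hist1h4i beside Ipo5, Lockd and Eri1 in CD4 cells and Fcer1g, Hist1h1d, Hist1h2ae, Knl1 and Smc2 in CD8 cells. Ccr4, Ccr7, Ccr8, Cxcr5 and, in CD8 cells, Ccr9 had too few positive cells. In conventional CD8 cells Cxcr6 went with Ifitm1, Ifitm3, Ifitm2, AA467197 and S100a4.

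Between Treg genotypes the receptors were compared as ratios of CPM with exact 95% intervals that hold counting error only. CD226 contrasts lie within a lane, whereas lane and TIGIT loss cannot be told apart. Past 1.5-fold, 0 of the 4 receptors with at least 20 CPM in Treg-origin cells (Ccr2, Ccr9, Cxcr3 and Cxcr6) moved under CD226 loss, where 3.58% (TIGIT present) and 4.02% (TIGIT absent) of genes at that level did. Under TIGIT loss 1 of 4 moved in each background, beside 2.46% (CD226 present) and 4.57% (CD226 absent) of genes. Cxcr6 was the higher one: 325 CPM with double-knockout against 163 CPM with CD226-knockout Treg cells, a ratio of 2.0 [1.74, 2.31]. With CD226 present the same loss gave 1.19 [1.05, 1.36]. The thinned share of Cxcr6-positive Treg-origin cells was 25.2%, 21%, 25.9% and 35.0%, so the double-knockout library was highest in cells as well as in UMIs. Cxcr3 was the lower one: 86.9 CPM with TIGIT-knockout against 133 CPM with wild-type Treg cells, a ratio of 0.653 [0.540, 0.787], and 0.817 [0.678, 0.984] with CD226 absent. Ccr2 came near the threshold under CD226 loss with TIGIT present (1.46 [1.30, 1.65]) and not with TIGIT absent (0.912 [0.812, 1.02]).

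Conventional cells were wild type in all libraries. Of their 3 receptors with at least 20 CPM (Ccr2, Cxcr3 and Cxcr6), 0 moved past 1.5-fold in any of the 8 contrasts. In conventional CD4 cells 0.197% and 0.491% of genes did under CD226 loss (TIGIT present and absent) and 0.118% and 0.0786% under TIGIT loss (CD226 present and absent). In conventional CD8 cells the shares were 0.278% and 0.535%, and 0.258% and 0.119%. Ccr9 had a mean below that level, at 19.1 ± 7.43 CPM in CD4 cells and 7.34 ± 2.86 CPM in CD8 cells (SD, n = 4 libraries), and was lower in both libraries with CD226-deficient Treg cells. Its CD4 level was 11.3 against 24.1 CPM with TIGIT present, a ratio of 0.469 [0.410, 0.535], and 14.5 against 26.7 CPM with TIGIT absent, a ratio of 0.541 [0.476, 0.615]. In CD8 cells the ratios were 0.575 [0.461, 0.715] and 0.545 [0.460, 0.644]. In Treg-origin cells they were 0.906 [0.783, 1.05] and 0.849 [0.740, 0.972]. The thinned share of Ccr9-positive conventional CD4 cells was 3.25%, 1.59%, 3.77% and 2.14%, the same order of libraries as the CPM. The number of cells with both antibodies, which the fixed cut-offs leave out, was 874, 971, 1144 and 434, and the median antibody ratio of conventional CD4 cells was 3.14, 3.15, 3.15 and 3.50. Summed neutrophil markers in conventional CD4 cells were 4.54, 41.6, 3.80 and 126 CPM, and without the barcodes of B and myeloid transcripts the log2 ratios of Ccr9 in CD4 cells were -1.04 and -0.86, beside -1.03 and -0.84 with them (pseudocount 1 CPM).

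**Figure D5:**
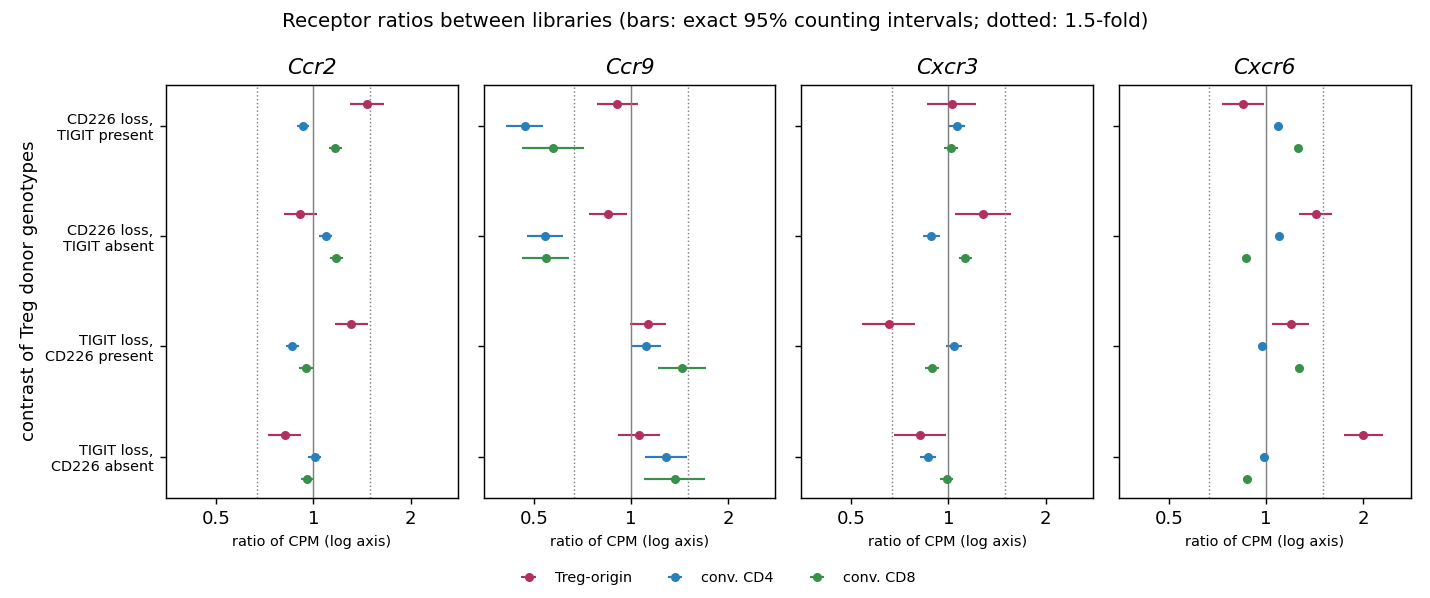
Ratio of CPM between libraries (horizontal log axes) for Ccr2, Ccr9, Cxcr3 and Cxcr6 under the 4 contrasts of Treg donor genotype, with exact 95% intervals; colours are cell classes and dotted lines 1.5-fold. Ccr9 in conventional CD4 and CD8 cells lay at 0.469 to 0.575 under both contrasts of CD226 loss, and Cxcr6 in Treg-origin cells at 2.0 under TIGIT loss with CD226 absent.

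Among the rare receptors, Ccr7 in conventional CD4 cells was higher with CD226-deficient Treg cells, at 3.53 against 2.26 CPM (ratio 1.56 [1.14, 2.17]) and 4.32 against 1.98 CPM (2.19 [1.55, 3.11]). In CD8 cells its ratios were 0.727 [0.470, 1.12] and 1.09 [0.727, 1.65]. Ccr4 in conventional CD8 cells was lower under CD226 loss, from 8 to 27 UMIs per library (0.406 [0.154, 0.970] and 0.428 [0.212, 0.833]), but the first ratio changed direction in thinned cells. Cxcr5 in conventional CD8 cells was 1.78 CPM in the wild-type library and at most 0.911 CPM in the others, with ratios of 0.426 [0.249, 0.709] under CD226 loss and 0.513 [0.312, 0.827] under TIGIT loss from wild type; both changed direction in thinned cells. Cxcr4 stayed within 1.5-fold in every class and contrast, and Ccr8 had at most 19 UMIs in any class and library.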

How the data were processed

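Donor T cells of 4 libraries were profiled with the 10x 3′ kit v3 and barcoded CD45.1 and CD45.2 antibodies. The deposited values are raw UMI counts per gene and cell, made with Cell Ranger 3.1.0 on mm10, per the submitters' processing notes; strand handling and cell calling are not given in the sources used here. Here, cells were kept from 500 genes up and to a mitochondrial share of 10% (7654, 9045, 10383 and 9058 cells) and assigned by log2 antibody ratio with 1 added to each antibody count. Cells between the cut-offs, called both-antibody cells, and conventional cells unresolved by Cd4 and Cd8 were set apart. No doublet caller was run. UMIs were summed by class and library (1747477 to 2305761 in Treg-origin, 25441326 to 39929802 in conventional sums). The sums were tested in R 4.3.3 with edgeR 4.0.16 (filterByExpr, TMM, quasi-likelihood F-test, Benjamini-Hochberg over all genes tested, threshold 0.05). Cd226, Tigit, Cd4, Cd8a and Cd8b1 were left out, and Foxp3 where it divided the cells. Library was a block because the classes of a library were captured together. The sums of the 3 classes were fitted together and share an estimate of the spread, and the Foxp3 comparison was fitted apart. The p-values measure only how class differences vary between 4 libraries of different genotype, as the block removes what the classes of a library share. On simulated counts the fits found 90% to 100% of 3-fold and 4-fold changes. Of 1.5-fold changes they found 98% for CD8 against CD4 cells and 70% for Treg-origin against CD4 cells. In the Foxp3 comparison they found 36% of these, so most changes of that size would be missed there. The simulation gave all genes the same fixed spread and no difference between libraries. Changes were placed only in genes with a mean above 5 CPM over all sums of a fit. Ccr7, Ccr8 and Cxcr5 had means below that level in every class, so the simulation does not cover them. Ccr4, at 9.99 CPM in Treg-origin, 2.75 CPM in conventional CD4 and 0.542 CPM in conventional CD8 cells, was below it over the 3 classes together. The simulated class comparisons therefore do not cover Ccr4 either. Genotypes have 1 library each and no test: ratios have exact 95% intervals, past 1.5-fold was counted over genes with at least 20 CPM, and a count of 0 was read against 3 UMIs. Intervals and these limits cover counting error only. For shares and pairs, cells were thinned to 2000 UMIs, shallower cells left out.

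All 9 receptors are named. Genes like a receptor have a class mean of at least 50 CPM and are the first 5 by the smallest of the 4 log2 ratios (pseudocount 5 CPM). Listed genes are those called, up to 6 per direction. Some genes that these rules name are not reported here. The members, gene lists and markers were chosen with earlier results of these data known. Alternatives were DESeq2 1.42.0, no count filter, no block, single lanes, left-out libraries, stricter cell and antibody cut-offs (1000 genes, 5% mitochondrial UMIs, ratios of -1.5 and 3), thinning, other pseudocounts (0.5 and 5 CPM) and TMM scaling. A further one, without barcodes carrying at least 3 UMIs of 11 B-cell and myeloid genes, was chosen after seeing the data. Python 3.11.15 with numpy 2.4.6, scipy 1.17.1, pandas 2.3.3 and matplotlib 3.10.9 did the rest.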

Additional observations from a re-analysis of the deposited data

Results flagged for a closer look

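In 3 of 27 groups of 4 libraries, 1 library lay apart from the others by Dixon's criterion, which chance meets in about 1 of 20 groups. Ccr4 in Treg-origin cells was 12.9 CPM in the TIGIT-knockout library, Cxcr3 in conventional CD8 cells was 93.7 CPM in the TIGIT-knockout library, and Cxcr4 in conventional CD8 cells was 8.03 CPM in the wild-type library.

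Some ratios between libraries pointed in opposite directions in the 2 backgrounds; with 1 library per genotype the difference was not tested. In Treg-origin cells, Ccr2 under TIGIT loss was 1.31 with CD226 present and 0.816 with CD226 absent. Cxcr6 there under CD226 loss was 0.850 with TIGIT present and 1.42 with TIGIT absent. In conventional CD4 cells under CD226 loss, Ccr2 was 0.931 and 1.09, and Cxcr3 1.06 and 0.886. In conventional CD8 cells Cxcr6 was 1.26 and 0.867 under CD226 loss, and 1.26 and 0.873 under TIGIT loss.

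Cells outside the comparisons also held receptor transcripts. As means over 4 libraries, cells with both antibodies had 152 CPM of Ccr2, 3.24 of Ccr4, 1.79 of Ccr7, 70.9 of Ccr9, 96.7 of Cxcr3, 8.25 of Cxcr4, 1.57 of Cxcr5 and 286 of Cxcr6. Conventional cells unresolved between CD4 and CD8 had 164 CPM of Ccr2, 2.65 of Ccr4, 4.02 of Ccr7, 24.7 of Ccr9, 89.5 of Cxcr3, 8.20 of Cxcr4, 4.44 of Cxcr5 and 391 of Cxcr6. The Ccr9 level of the cells with both antibodies lay between those of Treg-origin and conventional cells.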

How the results depend on the processing

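Of the receptor values in the class tests, 367 alternatives kept direction and side of the threshold, 39 lost the call, 12 gained it and 19 changed direction. Ccr2, Ccr4 and Ccr9 in Treg-origin against either conventional class, and Cxcr6 against CD4 cells, kept their calls under all alternatives run. The changes of direction in class tests were in receptors not called with all libraries and the settings of the report. Ccr7 in Treg-origin against CD4 cells was 0.012 within lane 3 and -0.50 to 0.25 with 1 library left out, and against CD8 cells -0.27 under stricter antibody cut-offs and -0.70 in cells with more Cd4 than Cd8. Cxcr3 against CD8 cells was -0.079 within lane 4 and -0.018 in cells with more Cd4 than Cd8. Cxcr4 against CD8 cells was 0.10 within lane 3, 0.024 under the stricter cell filter, 0.55 under stricter antibody cut-offs, 0.26 thinned, 0.026 without barcodes of B or myeloid transcripts and -0.097 to 0.026 with 1 library left out. Between Foxp3-positive and Foxp3-negative cells, Ccr9 was 0.047 under the stricter filter, 0.018 thinned and -0.30 to 0.19 with 1 library left out; Cxcr3 was 0.048, 0.25 and -0.24 to 0.12. Thinned log2 ratios in conventional CD8 cells were 0.16 for Ccr4 and 0.046 for Cxcr5 under CD226 loss with TIGIT present, and 0.48 for Cxcr5 under TIGIT loss with CD226 present. The cause was not tested.

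Counts of genes called moved by over 1.5 times as follows. Treg-origin against CD4 cells gave 1503 higher and 1744 lower genes within lane 4 and 1564 and 1667 in thinned cells (2378 and 2802 in all libraries). CD8 against CD4 cells gave 1092 and 1285 within lane 3, 1151 and 1159 within lane 4, and 1658 higher with no replicate block (2490 and 2131). Treg-origin against CD8 cells gave 2216 lower when thinned (3402). The Foxp3 comparison, 22 higher and 15 lower, gave 3 and 0 with DESeq2, 0 and 0 with no replicate block, 9 and 8 under the stricter filter, 2 and 6 under stricter antibody cut-offs, 2 and 3 thinned, 49 lower with no low-count filter, and 9 to 30 higher with 1 library left out. Lanes alone and thinning use fewer sums or fewer UMIs. Depth limits Ccr7, Ccr8 and Cxcr5 in Treg-origin cells, which rest on 24, 11 and 18 UMIs.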
